A study of Mus musculus with 2 samples.

Results

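The genes described here make peptides for MHC class I and show them at the cell surface: the inducible proteasome subunits Psmb8, Psmb9 and Psmb10, the peptide transporter genes Tap1 and Tap2, the loading factor gene Tapbp, the light chain gene B2m, the heavy chain genes H2-K1 and H2-D1, and the transactivator gene Nlrc5. They were taken by symbol, and 10 of 10 were found among the 32285 genes of the deposited tables. The study cultured R1, a mouse embryonic stem cell line, in N2B27 for 72 hours under 2 conditions and made 1 droplet library of each. In LB the medium contained the self-renewal cytokine LIF and the growth factor BMP4, and the dishes were coated with gelatin. LBPXRS held the same LIF and BMP4 together with PD0325901 (an inhibitor of MEK), Xav939 (an inhibitor of tankyrase in the WNT pathway), SB431542 (an inhibitor of the activin and NODAL receptors) and Resorcyclic lactone (no target is named in the labels), with the cells on fibronectin. Medium and substrate therefore cannot be told apart, and with 1 library per condition no test across cultures was possible.

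Values are UMIs, counts of tagged RNA molecules. LB gave 1783 kept cells with 45490517 UMIs (median 25418 per cell) and LBPXRS gave 2705 with 51832444 (median 19058). CPM is the UMIs of a gene in the pooled cells scaled to a total of 1000000. Intervals in brackets are exact, at 95%, and cover counting error alone, not the spread between cultures. In pooled cells, fewer cells with a transcript and less transcript per cell cannot be told apart, so the cells are described after the totals. The cultures also differed outside the gene set: 4 Y-linked genes had 2872 UMIs in LB and 1 in LBPXRS, and the median log2 ratio was -0.61 on chromosome 8 and -0.63 on chromosome 11, against -0.17 over the 7661 genes that reached 10 CPM in LB or LBPXRS. With chromosomes 8, 11 and Y left out of the totals, the median log2 ratio of the 10 genes was -2.26, beside -2.13 with them. That of all tested genes was then -0.26. The part of these differences in the results below was not otherwise tested. The deposited libraries shared 10 barcodes, 8 of them among kept cells, and these 8 held 12 of the 6854 Psmb8 UMIs of LB and 0 of LBPXRS.

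The proteasome is a barrel of stacked rings whose beta rings hold the cutting subunits. Interferon, above all interferon gamma, is known to raise an alternative set, the immunoproteasome, in which Psmb8 takes the place of Psmb5, Psmb9 that of Psmb6 and Psmb10 that of Psmb7. The peptides are pumped into the endoplasmic reticulum by the Tap1 and Tap2 dimer, handed over by tapasin (the product of Tapbp) and bound by a heavy chain paired with B2m. Mouse embryonic stem cells are known for low surface MHC class I, which rises on differentiation or with interferon.

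The promoters carry the letters of several factor sites, shown here because the genes varied together across cells. The windows are the 250 bases before the start that RefSeq gives on GRCm38.p6; 8 of the 10 genes had a window, and Tap2 and Nlrc5 had no entry. Motifs were searched on both strands: the interferon-stimulated response element (ISRE) as a pair of GAAA with any 2 bases between, the gamma-activated site as TTCNNNGAA, the kappaB site by its consensus, and the inverted CCAAT box as ATTGG. The ISRE and the kappaB site stand near each other in the B2m window, which is chr2:122147437-122147686 on the plus strand. RefSeq gives 2 starts for H2-K1, and the window of the upstream start, chr17:34000348-34000597 on the minus strand, holds a palindrome that matches the kappaB consensus in overlapping positions, and the H2-D1 window holds the same letters at chr17:35262913-35262942 on the plus strand. The Psmb8 window holds a gamma-activated site in the stretch chr17:34198087-34198116 on the plus strand. Capitals mark the motif matches. For Psmb8 and H2-D1 a stretch of 30 bases is printed, since their RefSeq windows lie inside exons of longer transcripts in GENCODE M21. The windows of Psmb9, Tap1 and Tapbp also lie wholly inside exons of that annotation, and 52 of the 250 bases of the Psmb10 window do.
B2m: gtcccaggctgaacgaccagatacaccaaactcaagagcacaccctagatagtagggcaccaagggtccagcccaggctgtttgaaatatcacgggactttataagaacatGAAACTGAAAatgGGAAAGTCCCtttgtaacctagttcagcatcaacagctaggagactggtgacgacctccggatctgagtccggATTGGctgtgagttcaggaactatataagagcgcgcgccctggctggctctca
H2-K1: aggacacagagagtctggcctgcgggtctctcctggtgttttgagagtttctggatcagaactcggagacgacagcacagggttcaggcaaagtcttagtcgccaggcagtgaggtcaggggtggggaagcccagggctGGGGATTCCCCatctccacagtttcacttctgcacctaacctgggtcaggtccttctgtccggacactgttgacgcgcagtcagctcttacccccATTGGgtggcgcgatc
H2-D1: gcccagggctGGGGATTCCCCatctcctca
Psmb8: gtcctccgctgTTCCCAGAAgatgcccccc

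The ISRE letters were found in B2m alone among the 8 genes with a window, 139 bases before the start, against 2.98% of all 32851 windows. The gamma-activated site was found in Psmb8 alone, 97 bases before the start, against 7.02% of windows. The kappaB consensus was found in B2m, H2-K1 and H2-D1, against 5.0% of windows. ATTGG was found in Psmb9, Tap1, Tapbp, B2m, H2-K1 and H2-D1, against 33.8%. Psmb9 and Tap1 are read in opposite directions from starts so close that the segment chr17:34187331-34187555 lies before both, and a single CCAAT box near the Psmb9 end served both counts (Psmb9: cctgcaccgcgcgcagccgctgATTGGaaa). H2-K1 and H2-D1 shared a run of 47 identical bases over the kappaB letters. No motif searched was found in the window of Psmb10, nor in those of the constitutive genes Psmb5 and Psmb6, the activator genes Psme1 and Psme2 and the trimming gene Erap1. Outside the set, the ISRE letters were found in the windows of the interferon targets Isg15 and Gbp2. A window of Irf1 held a gamma-activated site, the kappaB consensus and a CCAAT box, and its other window held none. A match is a description of letters, and binding was not measured.

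Each of the 10 genes had a lower CPM in LBPXRS than in LB. Cell type markers differed between the libraries too. The 7 primitive streak markers summed to 322 CPM in LB and 3.63 in LBPXRS, and the 10 mesoderm markers to 209 and 4.96. The 10 naive pluripotent markers summed to 1134 and 1749. The part of this difference in the ratios below was not tested. The catalytic subunits came apart in size. Psmb8 (ENSMUSG00000024338, chr17:34197721-34201454) had 6854 UMIs in LB, a CPM of 151 (147 to 154), and 1 UMI in LBPXRS, a CPM of 0.0193 (0.000488 to 0.107). The ratio was 7809.5 (1401 to 308504), and the log2 ratio with 1 CPM added to both sides was -7.22. The single Psmb8 UMI of LBPXRS came from a cell with 17056 UMIs of which 0.0117% were mitochondrial, a share below the library's median of 2.54%. Psmb9, which shares the segment before its RefSeq start with Tap1, had a CPM of 24.4 (23 to 25.9) in LB and 2.66 (2.24 to 3.15) in LBPXRS, 9.18-fold lower (7.69 to 11). Psmb10, on chromosome 8, had the highest CPM of the set in both libraries, 281 (276 to 286) and 66.9 (64.6 to 69.1), a ratio of 4.2 (4.05 to 4.36). So Psmb8 was close to undetected in LBPXRS, while Psmb10 still reached 64.4% of its cells without thinning.

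The transporter genes were low in both libraries. Tap1 had 364 UMIs in LB and 49 in LBPXRS, with CPMs of 8.0 and 0.945 and a ratio of 8.46 (6.27 to 11.7). Tap2 had 398 and 4 UMIs, with CPMs of 8.75 and 0.0772 and a ratio of 113 (43.9 to 418). Of the 4 LBPXRS UMIs of Tap2, 3 came from a cluster of 105 cells with a median mitochondrial share of 0.182%. With the cells under 0.5% mitochondrial UMIs set aside (32 in LB and 168 in LBPXRS), Tap2 was at 8.76 and 0.0201 CPM, Tap1 at 8.01 and 0.785, Nlrc5 at 0.508 and 0.0403, and Psmb8 at 150.2 and 0, so the ratios of these low genes rest in part on such cells. The intervals of these ratios do not overlap, so the partners of the dimer differed in how much lower they were in LBPXRS beyond counting error. Tapbp, which brings empty class I molecules to the transporter, had a CPM of 48.2 (46.2 to 50.2) in LB and 5.32 (4.72 to 5.99) in LBPXRS, 9.05-fold lower (7.98 to 10.3).

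The class I chains differed less. H2-K1 had a CPM of 36.2 (34.5 to 38.0) in LB and 9.61 (8.78 to 10.5) in LBPXRS, a ratio of 3.77 (3.41 to 4.18). H2-D1 was near it, at 32.9 (31.2 to 34.6) and 8.53 (7.75 to 9.36), a ratio of 3.85 (3.46 to 4.30), and the intervals of the heavy chain ratios overlap. B2m had 3065 UMIs in LB and 2365 in LBPXRS, with CPMs of 67.4 and 45.6 and a ratio of 1.48 (1.40 to 1.56), the smallest ratio of the set. Nlrc5, known as the transactivator of class I genes, had 23 and 4 UMIs, with CPMs of 0.506 (0.321 to 0.759) and 0.0772 (0.0210 to 0.198).

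**Figure D1:**
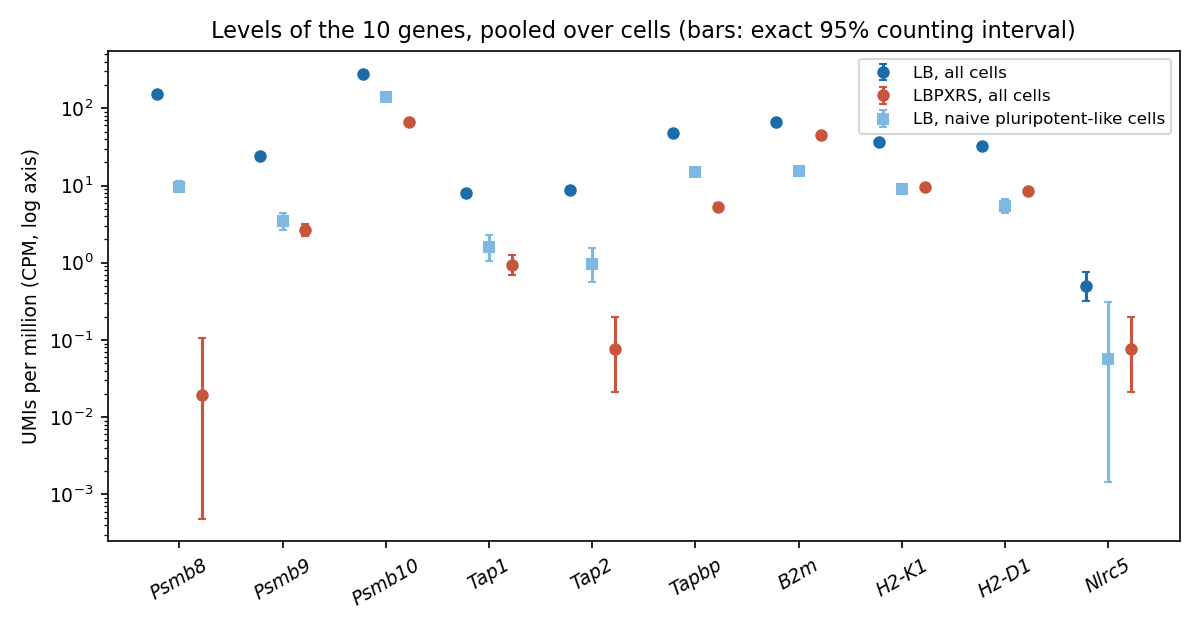
CPM of the 10 genes (log axis) in all LB cells, in naive pluripotent-like LB cells and in all LBPXRS cells, with exact 95% counting intervals as bars. Psmb8 is at 151, 9.69 and 0.0193, while for B2m the LBPXRS point (45.6) lies above the naive-like LB point (15.6).

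Counts by size were made for genes that reached 10 CPM in LB or LBPXRS, which held for 7 of the 10 (not for Tap1, Tap2 and Nlrc5). Of these, 4 were at least 4-fold lower in LBPXRS by the log2 ratio (Psmb8, Psmb9, Psmb10 and Tapbp), against 2.88% of the 7661 genes, and 6 were at least 2-fold lower (B2m was not), against 10.4%. Psmb10 and B2m reached 10 CPM in both libraries and the other 5 in LB alone, so the filter admitted those 5 through the library in which they were high. Of the 7, 0 were at least 4-fold higher, against 2.04% of genes, and 0 at least 2-fold higher, against 7.98%. Psmb10, at -2.05, was close to the 4-fold line and lies on chromosome 8, where the median was -0.61. With TMM scaling Psmb10 came to -1.90 and 3 of the 7 were at least 4-fold lower. The median log2 ratio was -2.13 over the 10 genes and -0.17 over the 7661. Over the 7661 genes, 41.4% of those differing at least 4-fold were higher in LBPXRS, and 49.6% with TMM scaling, which moved the median of all genes to -0.02; at 2-fold these shares were 43.5% and 56.7%.

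To compare shares at equal depth, 5000 UMIs were drawn at random from each cell, which left 1733 LB and 2621 LBPXRS cells, with 50 and 84 too shallow. Psmb8 was found in 526 of 1733 LB cells (30.4%, 28.2 to 32.6) while no UMI of it was left in the LBPXRS cells (0 of 2621), which by 3 counts allows up to 0.114% of cells with a UMI at this depth and sets no limit on cells that express it below detection. Psmb10 was found in 60.4% and 27.5% of cells, Psmb9 in 11.2% and 1.07%, Tapbp in 17.8% and 2.56%, and H2-K1 in 15.9% and 4.27%. B2m was found in 22.9% (20.9 to 25) and in a share of LBPXRS cells between 18.4% and 21.5%. Without thinning, 48.9% of LB cells and 0.0370% of LBPXRS cells had a Psmb8 UMI. The B2m shares were thus close, while the Psmb8 shares did not approach each other at either depth.

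The LB cells that carried the transcripts were found by clustering LB without the 10 genes and without the listed antigen presentation and interferon genes. Markers named 5 of the 8 clusters of at least 50 cells: naive pluripotent-like (628 cells), primitive streak-like (278), formative or primed-like (277), mesoderm-like (181) and trophoblast-like (55). The other 3 are called by their leading genes, Ndrg1 and Ddit4 (134 cells), S100a13 and Fabp3 (132), and Slc7a3 and Spp1 (61). The leading genes of the Ndrg1-led cluster include the interferon targets Ifi27l2a and Rtp4 and the class II gene H2-Ab1, Col1a1 was among those of the mesoderm-like cells, and the chemokine genes Cxcl10 and Ccl2 among those of the trophoblast-like cells. The Slc7a3-led cells were shallow (median 10618 UMIs) with a median mitochondrial share of 7.07%. Clusters of 19 and 18 cells are not described further.

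Psmb8 ranged 100-fold over these 8 clusters. It was highest in the primitive streak-like cells, at a CPM of 478 (461 to 495), and next in the Ndrg1-led cells, at 422 (397 to 447). The trophoblast-like cells, at 203 (183 to 224), and the mesoderm-like cells, at 181 (169 to 193), had overlapping intervals. The formative or primed-like cells, which held 9 of the 12 cells marked as doublets in LB, had 142 (134 to 151). The lowest levels were 25.5 (15.1 to 40.4) in the Slc7a3-led, 9.69 (8.30 to 11.3) in the naive-like and 4.78 (2.67 to 7.88) in the S100a13-led cells. The naive-like cells made up 35.2% of LB cells and held 2.51% of its Psmb8 UMIs, and the primitive streak-like cells made up 15.6% and held 45.4%.

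The other genes had smaller spans (Nlrc5, at 0 UMIs in 4 of the clusters, has none), and the lead passed between clusters. Psmb9 was highest in the Ndrg1-led (79.5, 69.2 to 90.9) and primitive streak-like cells (73.7, 67.2 to 80.6), whose intervals overlap, and lowest in the naive-like cells (3.44). Psmb10 ran from 608 (589 to 627) in the primitive streak-like to 86.3 (76.3 to 97.2) in the S100a13-led cells, a span of 7.05-fold. B2m was highest in the Ndrg1-led cells at 238 (220.4 to 258), above the 172 (162 to 183) of the primitive streak-like cells, and was 15.6 in the naive-like cells. H2-K1 likewise led in the Ndrg1-led cells at 101 (89.0 to 113) and was 7.01 (4.39 to 10.6) in the S100a13-led and 9.13 (7.78 to 10.6) in the naive-like cells. Tap2 spanned 92.8-fold, from 0.319 (0.00806 to 1.77) in the S100a13-led to 29.6 (25.6 to 34.1) in the primitive streak-like cells, with 1 UMI behind the lower value. Tapbp was 112 (97.0 to 128) in the trophoblast-like and 109 (101 to 117) in the primitive streak-like cells. Nlrc5 was below 2 CPM in each of the 8 clusters, with its highest level, 1.57, in the formative or primed-like cells. By comparison the constitutive genes spanned 2.91-fold (Psmb5), 1.26-fold (Psmb6) and 2.20-fold (Psmb7).

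**Figure D2:**
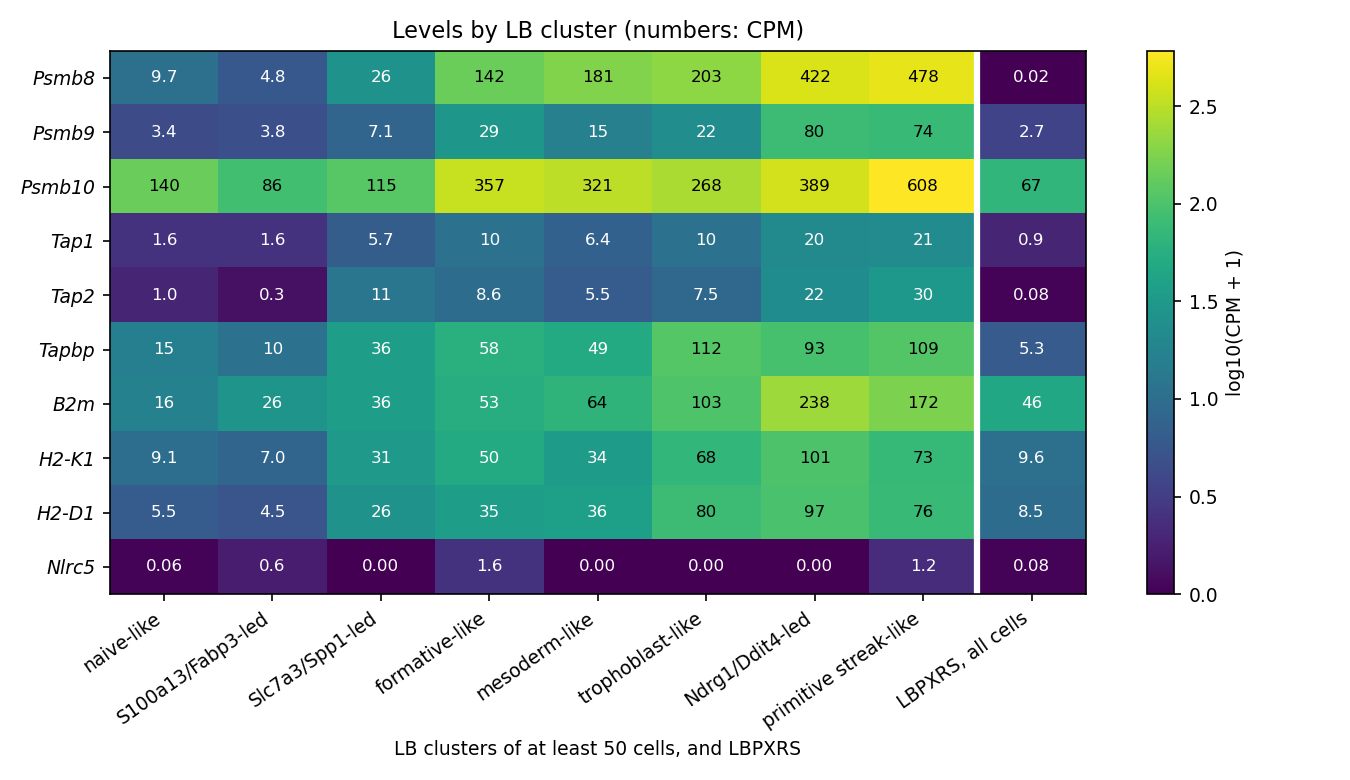
Colour shows log10(CPM + 1) and numbers show CPM for each of the 10 genes (rows) in the LB clusters of at least 50 cells and in all LBPXRS cells (columns). Psmb8 lies between 142 and 478 in the 5 columns from formative-like to primitive streak-like and between 4.78 and 25.5 in the 3 columns to their left.

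Between the primitive streak-like and the naive-like cells of the same library, 9 of the 9 genes that reached 10 CPM in these cells were at least 4-fold higher in the former, against 5.12% of 7766 genes (the exception, Nlrc5, was below that level), and 0 were at least 4-fold lower, against 3.81%. Of the 9, 6 reached 10 CPM in the primitive streak-like cells alone and so had to be higher there, which leaves Psmb10, Tapbp and B2m measured at that level in both. The median log2 ratio was 3.24 over the 10 genes and 0.26 over the 7766. The ratio was 49.3 (42.3 to 57.8) for Psmb8, 21.4 (16.4 to 28.5) for Psmb9 and 4.32 (4.11 to 4.55) for Psmb10. It was 30.9 (18.8 to 54.2) for Tap2, 13.3 (8.82 to 20.8) for Tap1, 11.1 (9.70 to 12.7) for B2m, 14.0 (11.2 to 17.5) for H2-D1 and 7.97 (6.65 to 9.58) for H2-K1. For Tapbp it was 7.28 (6.31 to 8.41) and for Nlrc5, with 8 UMIs against 1, 21.8 (2.92 to 967). Psmb8 and Tap2 thus had the largest ratios here, as they did between the libraries. The Tap2 interval overlaps those of Psmb8, Psmb9, Tap1 and Nlrc5, however. With 1 CPM added to both sides, the log2 ratio of Psmb9 (4.07) was above that of Tap2 (3.97). Cells of a cluster share 1 culture, so these are differences between cell groups of 1 library.

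The naive-like LB cells were nearer to LBPXRS than LB as a whole was, though not for each gene. Psmb9 was 3.44 CPM (2.63 to 4.42) in them and 2.66 in LBPXRS, a ratio of 1.29 whose interval (0.939 to 1.76) spans equality. H2-K1 was 9.13 and 9.61, a ratio of 0.95 (0.791 to 1.14). H2-D1 was lower in the naive-like LB cells, at 5.47 (4.43 to 6.67) against 8.53, and so was B2m, at 15.6 (13.8 to 17.5) against 45.6. Psmb10 (140.5 against 66.9), Tapbp (14.9 against 5.32) and Psmb8 (9.69 against 0.0193, a ratio of 502, 89.0 to 19957) were higher in the naive-like LB cells. So were Tap2 (0.958 against 0.0772, a ratio of 12.4, 4.05 to 50.7) and, by a ratio of 1.67 (1.01 to 2.71), Tap1. Of the 3 genes that reached 10 CPM here, Psmb10 and Tapbp were at least 2-fold lower in LBPXRS, against 6.52% of 7265 genes, and B2m at least 2-fold higher, against 9.32%; 0 of the 3 passed 4-fold in either direction, and Tapbp reached 10 CPM in the naive-like cells alone. The median log2 ratio over the 10 genes was -0.34 against the naive-like cells, beside -0.01 over the 7265.

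Free RNA in droplets can give UMIs to cells that do not make a transcript. As a measure of it, T, Hand1, Mixl1, Mesp1 and Foxf1, genes of the streak and mesoderm, stood in the naive-like cells at 1.56% to 3.74% of their CPM over all LB cells. A further gene of that list, Lefty2, stood at 154%, with 111 CPM in the naive-like cells, and so gives no such measure. The full lists of 7 primitive streak and 10 mesoderm markers summed to 13.9 and 20.7 CPM in the naive-like cells, against 322 and 209 in all LB cells. The share thus depends on the genes chosen, and the part of free RNA in the Psmb8 UMIs of these cells was not tested. Psmb8 stood at 6.43% and 8 of the other genes at 10.9% to 31.0%; Psmb10 was above these, at 140.5 CPM in the naive-like cells and 281 in all LB cells. In single naive-like cells, 519 of 628 (82.6%) had 0 Psmb8 UMIs, 79 had 1, 7 had at least 5 and the highest had 11.

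Psmb8 was uneven among LB cells. Of 1783 cells, 912 (51.1%) had 0 UMIs, 204 had 1, 442 had at least 5 and 249 at least 10, up to 43. The 10% of cells with the most held 57.7% of its UMIs, against 24.2% for Psmb5, 21% for Psmb6 and 24.1% for Psmb7. On the same measure Psmb9 stood at 61.0%, B2m at 52.6% and Psmb10 at 36.8%. At 5000 UMIs per cell the variance over the mean was 3.54 for Psmb8, 2.54 for Psmb10, 2.45 for B2m and 1.35 for Psmb9, beside 1.33, 1.23 and 1.20 for the constitutive subunit genes. Both measures depend on the mean, which at this depth was 0.827 UMIs for Psmb8, 0.142 for Psmb9 and 1.45 for Psmb5. Clusters held cells with and without Psmb8 UMIs: 50 of the 278 primitive streak-like cells (18.0%) had 0 UMIs and 126 had at least 10, and among the 181 mesoderm-like cells 68 had 0 and 33 at least 10. The primitive streak-like cluster depends on the resolution: at Leiden resolution 1 the cluster under this name held 147 cells at 717 CPM of Psmb8 and was led by Sprr2a3, T, Ptgs1 and the interferon targets Isg15 and Isg20, while Lhx1 and Mesp1 were among the leading genes of an unnamed cluster of 136 cells.

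**Figure D3:**
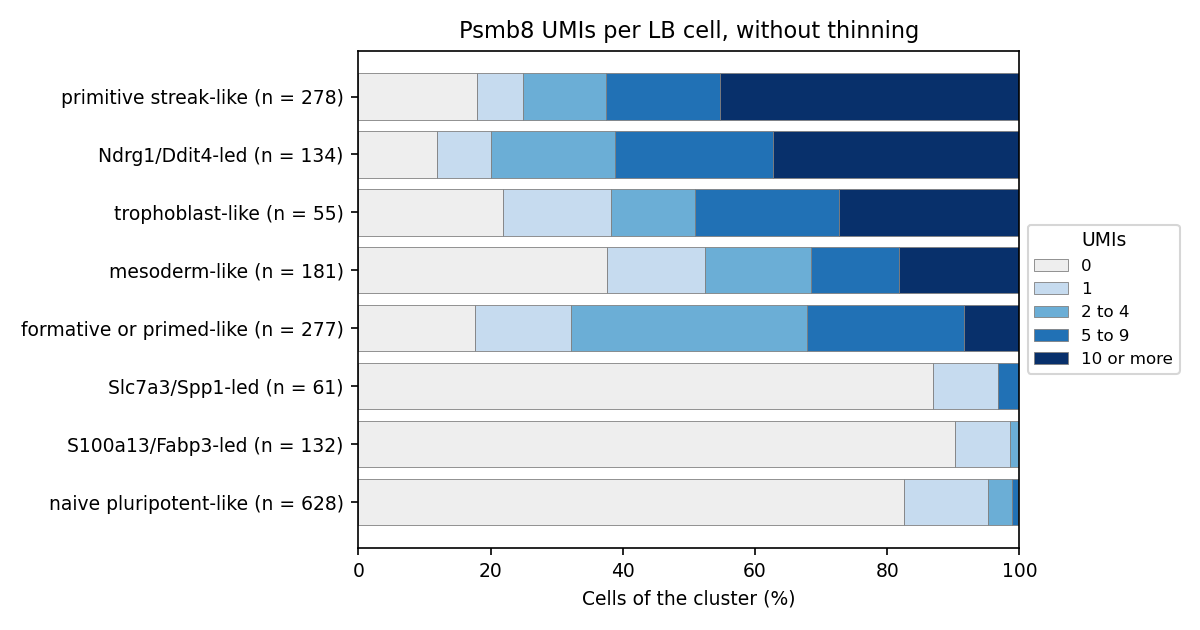
Share of cells (%) in each LB cluster of at least 50 cells by their number of Psmb8 UMIs, without thinning. Cells with 10 or more UMIs were 45.3% of primitive streak-like and 37.3% of Ndrg1-led cells and 0.159% of naive pluripotent-like cells.

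The balance of each inducible gene against the gene whose product it replaces was read from their UMIs. Such a share depends on how well each transcript is captured, so it is compared between cells, not between pairs. Psmb8 made up 34.5% (33.8 to 35.1) of the Psmb8 and Psmb5 UMIs in LB and 0.00887% (0.000225 to 0.0494) in LBPXRS. Within LB it was 3.84% in the naive-like, 32.9% in the formative or primed-like, 58.1% in the primitive streak-like and 59.8% (57.5 to 62.0) in the Ndrg1-led cells. Psmb9 made up 2.95% of its pair with Psmb6 in LB, 0.441% (0.338 to 0.566) in the naive-like cells, 7.43% in the primitive streak-like cells and 0.597% (0.502 to 0.705) in LBPXRS. Psmb10 made up 55.1% of its pair with Psmb7 in LB, 43.4% in the naive-like, 68.2% in the primitive streak-like and 22.3% (18.1 to 26.9) in the Slc7a3-led cells, and 28.2% (27.4 to 29.1) in LBPXRS. Within LBPXRS, the Psmb10 share was as low as 10.3% (6.65 to 15.1) in a cluster of 81 cells and 13.9% (8.69 to 20.6) in a cluster of 50. These shares rest on 23 and 20 Psmb10 UMIs. Both clusters were shallow, with medians of 3467 and 7176 UMIs and median mitochondrial shares of 0.0436% and 7.06%.

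**Figure D4:**
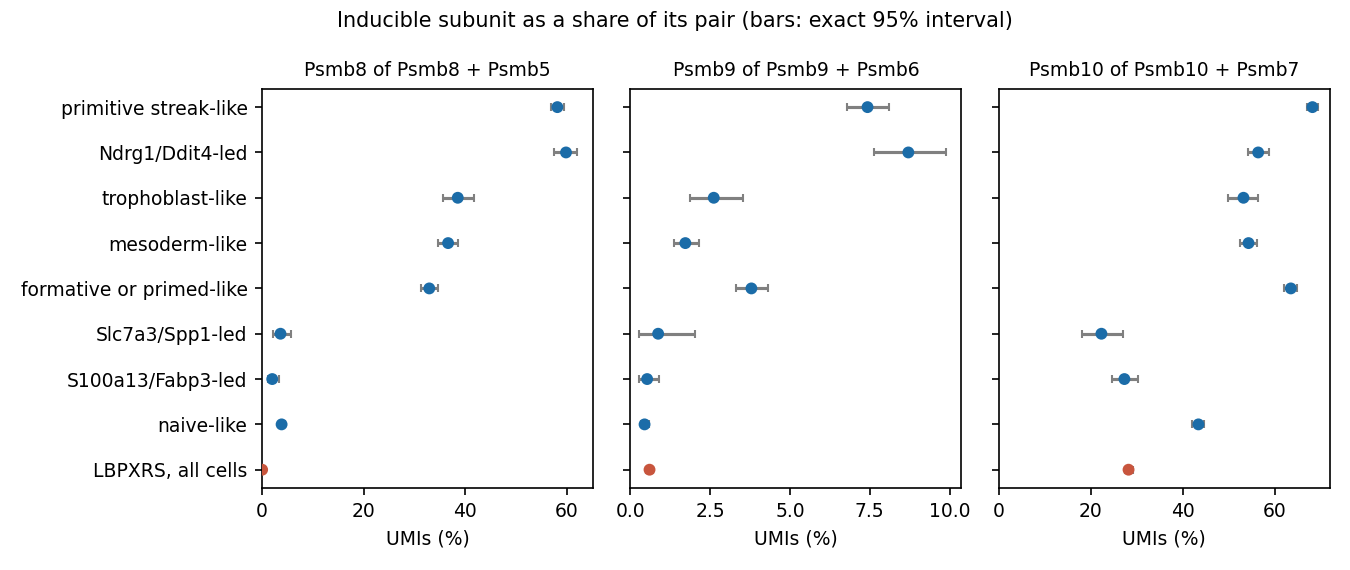
UMIs of each inducible subunit gene as a share (%) of its pair with the constitutive gene, in LB clusters of at least 50 cells (blue) and in all LBPXRS cells (red), with exact 95% intervals; the axes differ between panels. The Psmb8 share runs from 0.00887% in LBPXRS to 59.8% in Ndrg1-led cells and the Psmb10 share from 22.3% to 68.2%.

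Cells with Psmb8 held 8 of the other genes more often than the product of the shares gives, and Nlrc5, found in 4 cells, was too rare to compare. Among the 1733 thinned LB cells, 526 had Psmb8 and 194 had Psmb9, and 150 had both, where the product of the shares gives 58.9, a ratio of 2.55. The ratio was 2.53 for Tap2 (53 cells with both), 2.18 for Tapbp (204), 2.18 for Tap1 (59), 2.08 for H2-D1 (143), 2.02 for H2-K1 (169), 1.93 for B2m (233) and 1.42 for Psmb10 (451). It was 1.06 for Psmb5, 1.000 for Psmb6 and 1.13 for Psmb7. This ratio cannot pass 1 over the gene's share of cells. It is therefore held near 1 for genes found in most cells, such as Psmb6 (97.2%), Psmb5 (71.8%), Psmb7 (67.1%) and Psmb10 (60.4%). When the products were taken within clusters and summed, the ratio was 1.35 for Psmb9, 1.44 for Tap2, 1.36 for Tapbp, 1.17 for B2m and 1.15 for Psmb10, beside 1.08 for Psmb7 and 1.00 for Psmb5. For Nlrc5, with 2 cells holding both, it was 1.65 over all cells and 0.802 within clusters. In cells with a Psmb8 UMI, Psmb9 was at 75.3 CPM, against 7.95 in cells without, and B2m at 176 against 33.5. At least 5 of the 10 genes were found in 167 LB cells (9.64%), among them 96 of 275 primitive streak-like (34.9%), 34 of 130 Ndrg1-led (26.2%) and 1 of 625 naive-like cells (0.160%), and in 0 of 2621 LBPXRS cells.

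The genes most like Psmb8 over the 1783 LB cells were ranked by Pearson's r on log-normalised values among 10949 genes. The points share 1 library and differ in depth, and r is given as a description. The top 10 were Psme2 (0.78) and Psme1 (0.74), which encode the interferon-inducible activator that caps the proteasome, Isg15 (0.72), an interferon-induced ubiquitin-like protein gene, Psmb10 (0.72), Psmb9 (0.68), T (0.65), a primitive streak factor gene, Fgf8 (0.65), Tapbp (0.62), Idnk (0.59) and B2m (0.59). H2-D1 ranked 15 (0.57), H2-K1 18 (0.53), Tap2 30 (0.47) and Tap1 128 (0.33). Psmb5, Psmb6 and Psmb7 had 0.17, 0.21 and 0.25. With each gene taken against its cluster's mean, r was 0.64 for Psme2, 0.60 for Psmb10, 0.52 for Psmb9, 0.43 for T and 0.33 for B2m. On that measure Tap1 had 0.18, beside 0.11, 0.18 and 0.15 for Psmb5, Psmb6 and Psmb7.

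In LBPXRS the class I chains remained measurable and varied. The 8 LBPXRS clusters were not named by the markers. B2m ranged from 31.2 (27.6 to 35.1) CPM to 124 (91.1 to 164), and the highest was a cluster of 50 cells led by Pmel, Gla and Hspa5. H2-K1 in these 50 cells was 64.3 (41.6 to 95), against 2.57 to 13.5 in the other 7 clusters, and H2-D1 was 41.2 (23.5 to 66.9), against 5.13 to 14.0. The 50 cells were shallow, with a median of 7176 UMIs and a median mitochondrial share of 7.06%, and held 5.02% of the H2-K1 UMIs of LBPXRS. Psmb8 had 0 UMIs in them.

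The constitutive counterparts differed less between the libraries than the inducible subunits. Psmb5 was at 287 and 218 CPM (log2 ratio -0.40), Psmb6 at 803 and 443 (-0.86) and Psmb7 at 229 and 169.8 (-0.43). The other 11 subunits of the 20S core had a median of -0.38 and the 20 subunits of the 19S cap -0.50, with 0 genes of either list at least 4-fold lower and 1 of each at least 2-fold lower (Psma5 at -1.03 and Psmd12 at -1.28), against 2.88% and 10.4% of all genes. The 5 assembly factor genes, Pomp among them, had a median of -0.42. The activators came apart: Psme1 was at 200.4 and 46.4 CPM (-2.09) and Psme2 at 342 and 61.6 (-2.45), while Psme3 and Psme4, which encode other caps, were at -0.93 and -0.87. The PRC2 genes Ezh2, Eed and Suz12, members of a complex known to silence class I genes in some cells, had a median of 0.07.

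In peptide trimming and loading, Erap1, the aminopeptidase that trims peptides in the endoplasmic reticulum, had 240 UMIs in LB and 4 in LBPXRS, CPMs of 5.28 and 0.0772 and a ratio of 68.4 (26.4 to 253). The chaperone genes Calr, Canx and Pdia3, which also serve other glycoproteins, were at 0.34, -0.63 and 0.17, and Tapbpl, a relative of tapasin, at -1.34. Of the other class I and class I-like genes, 16 of 20 were in the table and 2 passed 10 CPM. These were H2-T22, at 19.7 and 4.23 CPM (-1.99), and Fcgrt, the neonatal Fc receptor gene, at 3.63 and 17.1 (1.97). The class II list, 10 of 11 genes in the table, had 1 gene past 10 CPM, H2-DMa, which helps load class II, at 3.76 and 11.4 CPM (1.38). Of the 10 class II genes, 5 had a ratio above 0 and 4 below.

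The 9 regulators of class I genes past 10 CPM had a median of -0.34. Irf1, a factor induced by interferon gamma, was the 1 of them past 4-fold, at 29.4 and 2.30 CPM (-3.20), against 2.88% of all genes. With Creb1, at 18.2 and 8.22 CPM (-1.06), 2 of the 9 were at least 2-fold lower, against 10.4%, and both reached 10 CPM in LB alone. No UMI of the interferon ligand genes Ifng, Ifnb1, Ifnl2 and Ifnl3 was found in either library, which by 3 counts allows up to 0.0659 CPM each in LB and 0.0579 in LBPXRS. Of 5 receptor and signalling genes past 10 CPM, Ifnar2 was higher in LBPXRS (9.41 and 35.6 CPM, 1.81), where 7.98% of all genes were at least 2-fold higher, and 0 were 2-fold lower, against 10.4%. Of 10 interferon targets past 10 CPM, 6 were at least 4-fold lower in LBPXRS, against 2.88% of all genes: Isg15 (61.8 and 0.0579 CPM, -5.89), Gbp2, Irgm1 (25 and 0.0965, -4.56), Ifi35 (-2.84), Ifi27 (-2.44) and Bst2 (-2.08). For Gbp2, 1257 UMIs in LB stood against 0 in LBPXRS, which by a floor of 3 counts over the library is at least 477-fold lower. Against this, Ifitm2 (0.61), Ifitm3 (0.12) and Xaf1 (0.93) were higher in LBPXRS, and Ifitm1 was at -0.19. Against the naive-like LB cells alone, the ratio was -2.92 for Irgm1, -1.99 for Ifi35, -1.57 for Bst2, -1.32 for Isg15, -1.05 for Gbp2 and -2.30 for Irf1, and it was 0.51 for Ifitm2 and 0.35 for Ifitm3. In those cells Isg15 (29 UMIs) and Gbp2 (19 UMIs) stood at 0.0264 and 0.0387 of their CPM over all LB cells. T and Hand1, used above as a measure of free RNA, stood at 0.0374 and 0.0241. The part of free RNA in these ratios was not tested. Of the 6 targets that were 4-fold lower, Bst2 reached 10 CPM in both libraries and the other 5 in LB alone, so the filter admitted those 5 through the library in which they were high. Bst2 lies on chromosome 8, and Irf1, Irgm1 and Ifi35 on chromosome 11, where the median log2 ratios were -0.61 and -0.63. No test of these lists was made.

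Immune cells, which express the immunoproteasome, were looked for by 8 markers, of which 6 had UMIs in LB and 5 in LBPXRS. Their summed CPM was 22.4 in LB and 110.1 in LBPXRS with Cd68 the most counted in LB (15 CPM, against 44.7 in LBPXRS) and Laptm5 in LBPXRS (64.9 CPM, against 6.62 in LB), and the sum stood at 29.3 in the naive-like and 10.6 in the primitive streak-like cells. Ptprc, the gene that defines leukocytes, had 0 UMIs in both libraries, Lyz2 had 0 in LB, and Csf1r and Itgam had 0 in LBPXRS. The 7 fibroblast markers, for feeder cells, summed to 14.2 CPM in LB and 4.51 in LBPXRS (Lum was at 0 in both), and to 7.44 in the naive-like and 8.90 in the primitive streak-like cells. The 5 endothelial markers summed to 17.8 and 39.6 CPM, and to 28.1 in the naive-like and 2.92 in the primitive streak-like cells. The part of such cells in the results was not tested.

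Psmb8, Psmb9, Tap1, Tap2, Tapbp and H2-K1 lie within 500 kb of each other on chromosome 17, and their neighbours were measured beside them. Of 72 genes within 500 kb of the start of Psmb8, 34 passed 10 CPM, 4 of them from the set and 30 others. The 30 had a median log2 ratio of -0.27 and a range of -1.28 to 1.98, with 0 at least 4-fold lower, 2 at least 2-fold lower (Smim40 at -1.28 and Wdr46 at -1.12) and 3 at least 2-fold higher (Gm17251 at 1.98, H2-DMa at 1.38 and H2-Ke6 at 1.07); these 5 are named for their values. Over all genes the shares were 2.88%, 10.4% and 7.98%. The 4 from the set were at -7.22 (Psmb8), -2.80 (Psmb9), -2.96 (Tapbp) and -1.81 (H2-K1). Zbtb22 overlaps Tapbp by 3422 bases on the same strand and was at -0.95, so reads there could fall to either gene. Brd2, 75.1 kb from Psmb8, was at -0.62. The median over chromosome 17 was 0.01, and over chromosome 2, which holds B2m, -0.11.

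**Figure D5:**
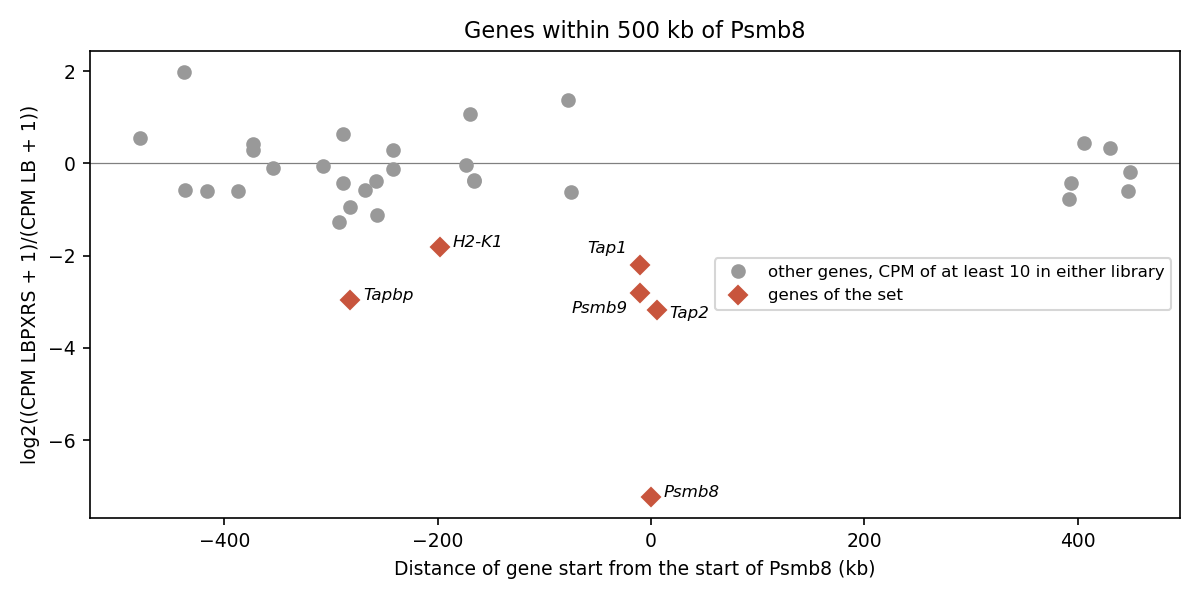
Log2 ratio of LBPXRS over LB (1 CPM added) against the distance of each gene's start from that of Psmb8 (kb), for genes of the set (red) and other genes at 10 CPM or more in either library (grey). The grey points lie between -1.28 and 1.98, and the 6 red points between -7.22 and -1.81.

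Some values share reads with other loci. H2-K1 and H2-D1 have near-identical relatives, so reads of the family may be split or dropped and their levels are uncertain. B2m lies opposite Patl2 (446 UMIs in LB and 719 in LBPXRS), Psmb10 opposite Gm16156 (0 and 0), and Psmb9 and Tap1 overlap by 212 bases on opposite strands. Whether counting used the strand is not given in the sources used here.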

How the data were processed

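Per the labels' protocols, both libraries used 10x Genomics 3′ chemistry. The deposited UMI counts came from Cell Ranger 4.0.0 on build mm10, per the submitters' processing notes; the annotation and cell calling are not given in the sources used here. Gene positions and neighbours are from GENCODE M21 and promoters from RefSeq, both on GRCm38.

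Computed here: barcodes with at least 1000 genes and at most 10% mitochondrial UMIs were kept (1783 of 2008 in LB, 2705 of 3111 in LBPXRS). UMIs were summed and scaled to CPM, and ratios are log2((CPM + 1)/(CPM + 1)), which understates low genes. Intervals are exact Poisson or Clopper-Pearson. With 1 library per condition there was no test, so genes were counted by size (4-fold or 2-fold, CPM of at least 10). On simulated counts for LBPXRS against LB (6987 genes, counting noise alone) the 4-fold rule found 100 of 100 genes changed 8-fold, 0 of 100 changed 3-fold and 0 of 6787 unchanged.

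LB and LBPXRS were clustered separately with scanpy 1.11.5 (2000 variable genes, 30 components, 15 neighbours, Leiden 0.5). Names went to clusters with at least 3 raised markers of a class, more than of any other, and with 1 such marker among the top 10 genes and no other class ahead there; this rule was set after the clusters were seen. Scrublet marked 12 LB (0.673%) and 14 LBPXRS cells (0.518%) as doublets, which were kept.

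The members and lists were chosen with earlier results of these data known. Named genes were the members, Psmb5, Psmb6 and Psmb7, list genes at 10 CPM or more that led by ratio, genes near Psmb8, and the 10 best correlated with it; others (among them Tapbpl, Erap1, Patl2, Zbtb22 and Brd2) were chosen after their values were seen. Alternatives were TMM scaling (edgeR 4.0.16), size factors, totals without chromosomes 8, 11 and Y, pseudocounts, filters, thinning depths and clusterings. Listed genes absent from the gene table (H2-K2, H2-T9, H2-T10, H2-Bl, H2-Ea, Mx1 and Mx2) were not analysed here.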

Additional observations from a re-analysis of the deposited data

Results flagged for a closer look

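The barcodes left out by the cell filter were not used in the comparisons of the report, and Psmb8 was counted in them too. The 225 LB barcodes left out held 73 Psmb8 UMIs, a CPM of 98.6 (77.3 to 124), against 151 in the kept cells, and Psmb10 stood at 222 (189 to 258). The 406 LBPXRS barcodes left out held 0 Psmb8 UMIs, which by 3 counts allows up to 4.12 CPM, and Psmb10 stood at 38.4 (25.5 to 55.6). B2m was at 71.6 (53.6 to 93.7) in the LB and 72.8 (54.5 to 95.2) in the LBPXRS barcodes left out. What these barcodes hold, cells or free RNA, was not tested.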

How the results depend on the processing

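Leaving out the case of naive pluripotent-like LB cells alone, the log2 ratio of LBPXRS over LB was below 0 in 90 of 90 member values under the alternatives, for Psmb8 from -10.3 (pseudocount 0.1) to -7.13. Against the naive-like cells alone, B2m came to 1.49, H2-K1 to 0.07, H2-D1 to 0.56 and Nlrc5 to 0.03, and the median of the 10 genes to -0.34. Over all LB cells, a pseudocount of 0.1 moved the median of the 10 genes from -2.13 to -2.51. Without a CPM minimum, 357 genes were at least 4-fold lower, 1561 at least 2-fold lower and 1117 at least 2-fold higher in LBPXRS (221, 794 and 611 with it), and of the 10 genes 6 were at least 4-fold and 8 at least 2-fold lower (4 and 6 with it). The share of LB cells with Psmb8 was 48.9% without thinning and 39.7% at 10000 UMIs. The log2 ratio of Psmb8 between primitive streak-like and naive-like cells, 5.49, was 6.41 at Leiden resolution 1 (147 and 220 cells) and 5.72 with doublets left out. The ratio for cells with both Psmb8 and Psmb9 was 2.15 at 10000 UMIs and 1.35 within clusters. The cause was not tested for any of these. No paired analysis was possible because each condition has 1 library and no result comes from a test.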
